A study of Homo sapiens with 30 samples.

Results

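The subject is how far the response to doxorubicin differed between 2 diffuse large B cell lymphoma lines, OCI-LY3 and OCI-LY19. The quantity is the difference in response: the 24 h minus 0 h change of a gene in OCI-LY3, minus the same change in OCI-LY19, on the log2(FPKM + 1) scale (FPKM is reads scaled by gene length and library size). It rests on 12 of the 30 libraries of the series. Of 60656 genes in the table of the 4 lines studied, 15913 had an FPKM of at least 1 in at least 3 of the 12 libraries, and those were tested. A positive difference means a higher response in OCI-LY3, which can be a stronger rise or a weaker fall.

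Both lines are established cultures grown from human lymphomas, labelled wild type. Each contributed 3 untreated libraries at 0 h and 3 libraries after 24 h in 0.2 µM doxorubicin, described in the labels as biological triplicates. The titles of the treated libraries also hold the abbreviation ctrl, and they were grouped by their treatment label. No untreated library was taken at 24 h, so drug exposure and time in culture cannot be told apart. OCI-LY3 was kept in RPMI medium with 20% fetal bovine serum and OCI-LY19 with 15%, and serum and line cannot be told apart either. With 1 line of each kind, a difference belongs to these 2 cultures.

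Doxorubicin traps topoisomerase II on DNA and leaves double-strand breaks. Cells with working p53 answer by raising a set of p53 targets that hold the cell cycle, repair DNA or start apoptosis, and the p21 protein made from CDKN1A then shuts down replication and mitosis genes through the RB and DREAM repressors. Cells in which p53 targets rise little can keep those genes on and rely on the checkpoint kinases CHK1 and WEE1. In B cell lymphoma, MYC, BCL6, NF-kB and the BCL2 family set much of growth, identity and survival.

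Sequencing depth was inferred as the library total at which FPKM values become whole reads, in genes with a matching length in the annotation. It was 24042778 to 27453170 reads per library in OCI-LY3 and 25630629 to 35270765 in OCI-LY19. Those genes held only 18.4% to 20.7% of the inferred reads. The summed FPKM of 6 B cell markers was 1160 to 1380 in untreated and 656 to 818 in treated OCI-LY3, and 369 to 414 and 281 to 308 in OCI-LY19, and none of the 6 was below 1 FPKM on average in any group. Subtype markers were mixed in both lines. In OCI-LY3, BCL6, the repressor that keeps the germinal center program, was at 71.4 to 83.7 FPKM untreated, and the germinal center serpin SERPINA9 at 36.2 to 70.2. The plasma cell regulators IRF4 and PRDM1 were at or below 0.399 and 0.0113 there. The plasmablast genes JCHAIN and PIM1 were at 401 to 423 and 5.84 to 7.04 there, against at most 0.322 and 0.58 in OCI-LY19, and the germinal center gene LMO2 was at 0.81 to 1.61 against 12 to 16.6. The labels give no subtype. OCI-LY19 had BCL6 at 1.08 to 2.22, SERPINA9 at or below 0.111, IRF4 at 2.79 to 3.99 and PRDM1 at 3.99 to 5.24. The untreated lines differed in 63.0% of all genes tested, so the 2 responses start from different levels.

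Of the 15913 genes, 7052 (44.3%) differed in response at an adjusted p below 0.05 (limma, Benjamini-Hochberg over all genes tested): 4298 (27.0%) were higher in OCI-LY3 and 2754 (17.3%) lower. The difference was at least 2-fold for 1203 of the higher (7.56% of genes tested) and 963 of the lower (6.05%). The share of higher calls was 60.9%, and it was 48.6% when libraries were scaled by median-of-ratios and 53.6% after quantile normalization. Under median-of-ratios scaling the median difference moved from 0.08 to -0.03 and the median response in OCI-LY3 from 0.17 to 0.00, so small differences are read against that shift. Each line's own response was called for about as many genes: 8369 (52.6%) in OCI-LY3, with 6142 higher (38.6%) and 2227 lower (14.0%), and 9157 (57.5%) in OCI-LY19, with 5337 higher (33.5%) and 3820 lower (24.0%). At least 2-fold responses were fewer in OCI-LY3, 1295 genes (8.14%), than in OCI-LY19, 1836 genes (11.5%). The share of rises among called genes was 73.4% in OCI-LY3 (48.2% and 51.1% under those scalings) and 58.3% in OCI-LY19 (48.1% and 44.6%).

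**Figure D1:**
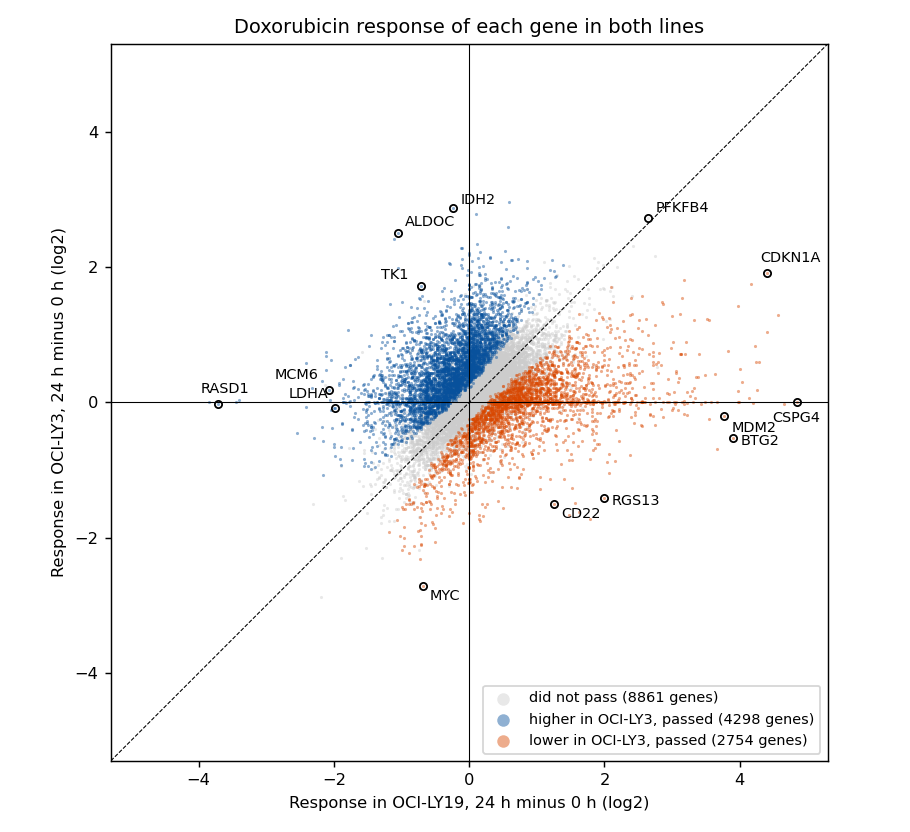
Each point is 1 of 15913 genes, with its response in OCI-LY19 on the x axis and in OCI-LY3 on the y axis (24 h minus 0 h, log2(FPKM + 1)), coloured by the call on the difference; the dashed line marks equal responses. The 4298 genes above the line in blue and the 2754 below it in orange passed the test, and points along the horizontal axis at 0 include genes below 1 FPKM in OCI-LY3.

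In the main fit, the higher calls came mainly from rises seen in OCI-LY3 and falls seen in OCI-LY19. The splits given here were counted in that fit only and rest on the calls within each line. With median-of-ratios scaling, called rises in OCI-LY3 went from 6142 to 3801 and called falls from 2227 to 4091. Of the 4298 genes, 1607 (37.4%) had a called rise in OCI-LY3 and no called response in OCI-LY19, 1160 (27.0%) a called fall in OCI-LY19 and no called response in OCI-LY3, and 865 (20.1%) had both. The lower calls came mainly from rises in OCI-LY19. Of those 2754 genes, 1397 (50.7%) had a called rise in OCI-LY19 and none in OCI-LY3, 479 (17.4%) rose in both and less in OCI-LY3, 388 (14.1%) fell in OCI-LY3 alone, and 254 (9.22%) fell in OCI-LY3 and rose in OCI-LY19. Low expression in OCI-LY3 touched the second set more: 729 of the 2754 (26.5%) were below 1 FPKM in all 6 OCI-LY3 libraries, against 11.3% of all genes tested. Where both responses were called (5293 genes), 4174 went the same way and 1119 opposite ways, and for 2920 of the 4174 the difference itself did not pass. Across genes, which are not independent replicates, the 2 responses had a Pearson r of 0.31 and a Spearman rho of 0.34, given as a description only.

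Over all genes tested, 27.0% were higher and 17.3% lower in OCI-LY3, and the count of each list is read against these shares. Among the 26 gene lists, the p53 targets had the lowest median difference. Of 33 listed, 30 passed the filter and 29 had a lower response in OCI-LY3 (0 higher; 96.7% lower, against 17.3% of all genes tested), with a median difference of -2.14 against 0.08 over all genes tested. In OCI-LY19 all 30 rose, with a median of 2.48. In OCI-LY3, 16 rose, 6 fell and 8 did not pass, with a median of 0.26. The median was 2.42, 2.37 and 2.67 above the untreated mean in the 3 treated OCI-LY19 libraries and 0.31, 0.24 and 0.35 in those of OCI-LY3. PLK2, PHLDA3 and SPATA18 were below the filter. For members low in OCI-LY3 the pseudocount of 1 understates a rise there. SESN1, for example, went from 0.298 to 0.436 FPKM to 1.32 to 2.03 in OCI-LY3, and from 18.7 to 27.6 to 96.7 to 118 in OCI-LY19. Over the other settings the median difference ran from -2.45 to -1.63 and the count of lower members from 27 to 30.

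**Figure D2:**
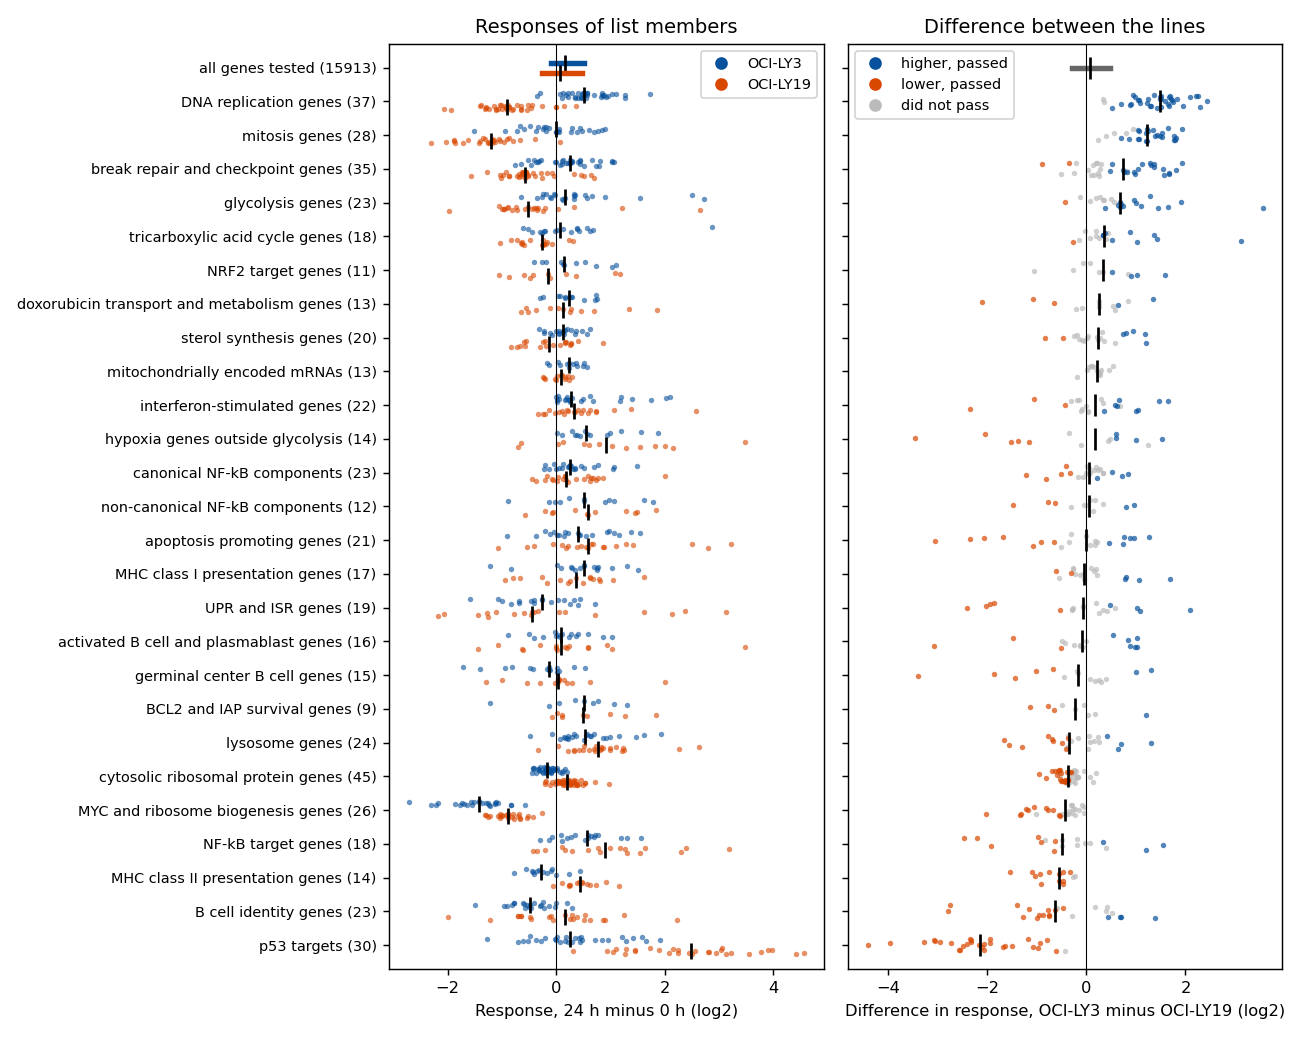
For each of the 26 gene lists (members tested in brackets), points are members and black ticks medians; the left panel gives the response in each line and the right panel the difference in response (OCI-LY3 minus OCI-LY19), both in log2(FPKM + 1) units, and for all genes tested the bars span the middle quartiles (UPR and ISR are the unfolded protein and integrated stress responses). The p53 targets lie farthest to the left on the right panel (median -2.14) and the DNA replication genes farthest to the right (median 1.49).

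CDKN1A encodes p21, the inhibitor of cyclin-dependent kinases (chromosome 6, 36676460 to 36687339, plus strand, GRCh38). In OCI-LY3 it was at 0.395, 0.620 and 1.21 FPKM untreated and 5.03, 3.93 and 7.90 treated, and in OCI-LY19 at 26.2, 24.8 and 20.5, then 545, 490 and 536. Treated libraries exceeded untreated ones in both lines without overlap, and every treated OCI-LY3 library stayed below every untreated OCI-LY19 library. The rises were 1.91 ± 0.21 and 4.41 ± 0.21, and the difference was -2.50 ± 0.30 (adjusted p = 6.92e-05). Untreated OCI-LY3 values were near or below 1 FPKM, where the pseudocount of 1 understates a rise, so the size of this difference depends on it.

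MDM2, the ubiquitin ligase that p53 induces and that destroys p53 (chromosome 12, 68808176 to 68850686, plus strand), was at 8.51, 10.3 and 8.70 FPKM untreated and 7.55, 9.27 and 6.80 treated in OCI-LY3. In OCI-LY19 it went from 14.3, 10.7 and 12.4 to 163 to 195. The OCI-LY3 groups overlapped and the OCI-LY19 groups lay far apart. Its response was -0.20 ± 0.13 (adjusted p = 0.208) in OCI-LY3 and 3.77 ± 0.13 in OCI-LY19, a difference of -3.97 ± 0.18 (adjusted p = 2.16e-07).

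BTG2, an antiproliferative cofactor of mRNA decay (chromosome 1, 203305491 to 203309602, plus strand), went opposite ways. It was at 78.6, 90.6 and 66.4 FPKM in untreated OCI-LY3 and 47.8, 56.8 and 58.1 after treatment, but at 6.20, 5.83 and 6.4 and then 103, 87.8 and 130 in OCI-LY19. Neither pair of groups overlapped, and the untreated order of the lines was turned round after treatment. The difference was -4.42 ± 0.21 (adjusted p = 2.36e-07), the second largest negative one among the 123 genes chosen by rule.

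Other members that feed different arms of the p53 program showed the same direction. TP53I3, an oxidoreductase, was at 0.705 to 0.810 and then 3.18 to 3.40 FPKM in OCI-LY3 and at 5.34 to 6.65 and then 119 to 212 in OCI-LY19, a difference of -3.28 ± 0.24 (adjusted p = 4.08e-06). SESN2, a sestrin that restrains mTORC1, rose from 6.44 to 7.93 FPKM to 11.1 to 13.6 in OCI-LY3 and from 3.67 to 3.84 to 39.9 to 41.2 in OCI-LY19 (difference -2.42 ± 0.12, adjusted p = 3.64e-07). GDF15, a secreted stress cytokine, stayed at or below 0.0549 FPKM in all OCI-LY3 libraries and went from at most 0.15 to 6.19 to 12.3 in OCI-LY19. It passed the filter through treated OCI-LY19 alone, so the filter built a difference in and it is no support. The 6 members that fell in OCI-LY3 while rising in OCI-LY19 were BTG2, AEN, TIGAR, TRIAP1, TNFRSF10A and EDA2R. PIDD1, the scaffold of the PIDDosome, was the member whose difference did not pass (-0.43): it rose by 1.65 in OCI-LY3 and 2.08 in OCI-LY19.

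Only 1 of the 25 p53 targets with a RefSeq promoter held a near-consensus p53 element in the 250 bases before its start, AEN, which encodes a nuclease that p53 induces. The element searched was a pair of 10-base half-sites with no spacer, at most 2 mismatches and none in the C and G of each core, and 63 of 27305 promoters (0.231%) held it; known p53 sites often lie inside the gene, outside this window. The promoter is shown because AEN fell in OCI-LY3 (-1.28) and rose in OCI-LY19 (1.04). It spans chr15:88621090-88621339 on the plus strand (GRCh38.p14, RefSeq), and the capitals mark the element, 34 to 15 bases before the start.
AEN: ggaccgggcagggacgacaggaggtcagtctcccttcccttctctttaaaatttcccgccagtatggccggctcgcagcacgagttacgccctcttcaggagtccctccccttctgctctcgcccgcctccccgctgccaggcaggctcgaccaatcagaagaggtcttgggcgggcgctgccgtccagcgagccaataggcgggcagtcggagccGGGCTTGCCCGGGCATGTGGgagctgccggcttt

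Apoptosis promoting genes split. Of 21 that passed the filter (23 listed), 7 had a lower response in OCI-LY3 (33.3%, against 17.3% of all genes tested). A higher one was seen in 6 (28.6%, against 27.0%). The median difference of -0.01 changed sign with the setting (-0.31 to 0.07). The 5 lowest were BBC3, TNFRSF10B, FAS, TNFRSF10A and BAX, all of them also on the p53 list. BBC3, which encodes the BH3-only protein PUMA, was at 0.240, 0.202 and 0.233 FPKM and then 0.423, 0.248 and 0.444 in OCI-LY3, against 1.19, 2.19 and 1.19 and then 20.7, 23.1 and 22.7 in OCI-LY19. It stayed below 1 FPKM in every OCI-LY3 library, and the difference was -3.06 ± 0.19 (adjusted p = 1.44e-06). The death receptor genes TNFRSF10B and FAS differed by -2.36 ± 0.14 and -2.07 ± 0.14. FAS rose in both lines, from 0.0274 to 0.136 FPKM to 0.321 to 0.596 in OCI-LY3 and from 2.43 to 2.95 to 18.8 to 22.5 in OCI-LY19. All OCI-LY3 values of FAS were below 1 FPKM, where the pseudocount of 1 understates a rise, so the size of its difference depends on it. BAX, the pore-forming effector, was at 29.2 to 37.9 and 29.3 to 35.1 FPKM in OCI-LY3 and went from 45.5 to 48.5 to 98.5 to 108 in OCI-LY19 (difference -1.08 ± 0.14, adjusted p = 0.000132).

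The apoptosis genes with a higher response in OCI-LY3 included the BH3-only genes BAD (1.26), BMF (0.89) and BID (0.76) and the initiator caspase gene CASP9 (0.73), and none of these 4 is on the p53 list. Of 9 survival genes 3 were lower and 1 higher, 44.4% called against 44.3% of all genes tested. BCL2, the survival gene blocked by venetoclax (chromosome 18, 63123346 to 63320128, minus strand), was at 23.4, 24 and 18.2 FPKM and then 9.21, 9.58 and 7.54 in OCI-LY3, and at 22.6, 21.9 and 21.4 and then 21.5, 19.7 and 21.2 in OCI-LY19. The untreated lines matched closely and only the treated OCI-LY3 libraries stood apart, with a difference of -1.14 ± 0.15 (adjusted p = 0.000155). Its relative BCL2A1, an NF-kB target, went the other way, from 1.36 to 3.13 FPKM to 5.79 to 7.71 in OCI-LY3 and below 1 FPKM throughout in OCI-LY19 (difference 1.20 ± 0.27, adjusted p = 0.00394, or 0.163 with a pseudocount of 0.1 and 0.0698 without the 4 libraries whose column names end in 2nd). MCL1 had no called response in either line, with a difference of 0.03 ± 0.12 (95% interval -0.24 to 0.30; adjusted p = 0.868).

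**Figure D3:**
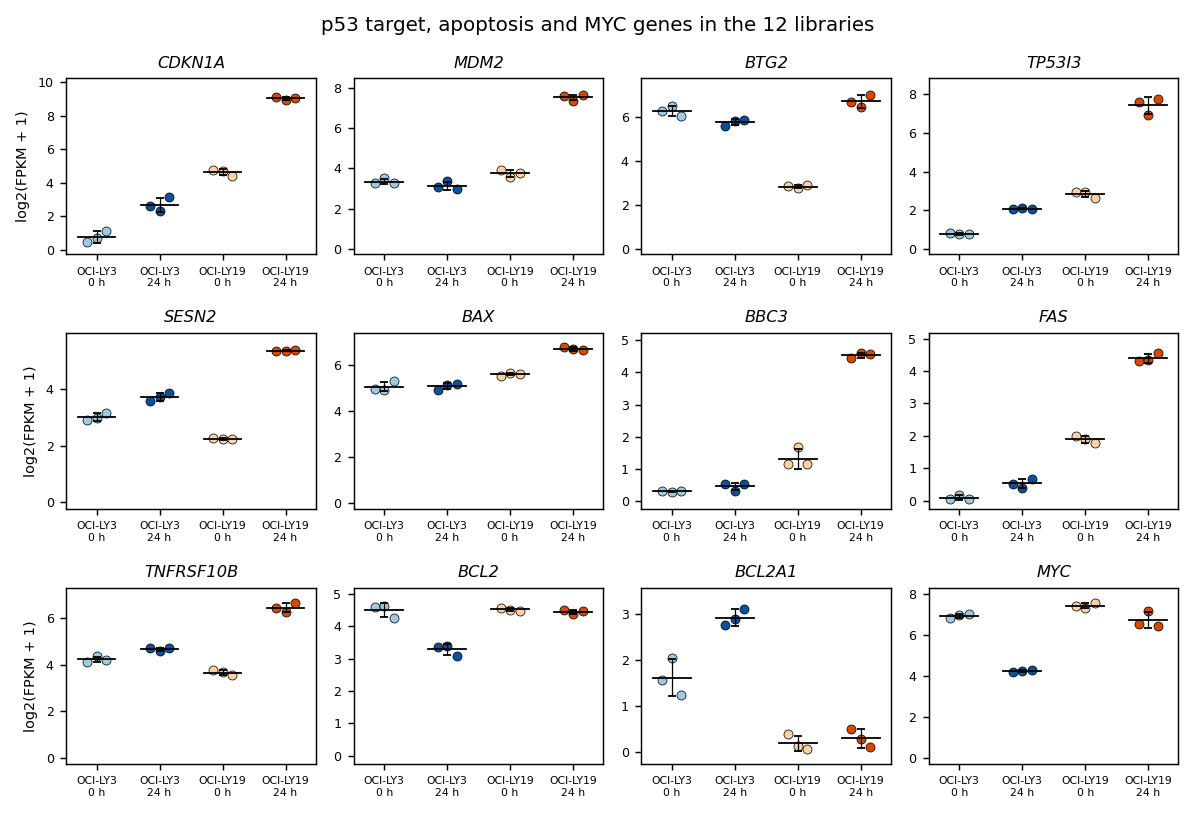
log2(FPKM + 1) of 12 genes in each library (points), with the mean (bar) and SD (error bar) of the 3 libraries of each group; each y axis includes 0 and ranges differ between panels. CDKN1A, MDM2, BBC3 and FAS are far higher in treated OCI-LY19 than in any other group, and MYC and BCL2 are lowest in treated OCI-LY3.

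DNA replication genes went the other way. All 37 listed passed the filter, 35 had a higher response in OCI-LY3 and 0 a lower one, and the median difference was 1.49. In OCI-LY3, 27 rose and 1 fell, and in OCI-LY19, 1 rose and 32 fell, with medians of 0.51 and -0.91. For 22 of the 37 the called responses were opposite, up in OCI-LY3 and down in OCI-LY19, against 865 of all 15913 genes tested. Their median was 0.50, 0.54 and 0.51 above the untreated mean in the 3 treated OCI-LY3 libraries, and -1.31, -0.67 and -0.86 in those of OCI-LY19. Over the settings the median difference stayed between 1.16 and 1.64.

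TK1, the S phase thymidine kinase (chromosome 17, 78174075 to 78187233, minus strand), was at 61.4, 52.9 and 79 FPKM untreated and 204, 195 and 237 treated in OCI-LY3. It was at 31.3, 35.7 and 38 and then 16.8, 24.4 and 21.6 in OCI-LY19. The groups did not overlap in either line, and the difference was 2.44 ± 0.23 (adjusted p = 1.45e-05). CCNE2, the cyclin E2 gene that drives entry into S phase, rose from 14 to 16 FPKM to 34.7 to 41.5 in OCI-LY3 and fell from 15.2 to 18.5 to 5.94 to 8.73 in OCI-LY19, starting at the same level in both (difference 2.29 ± 0.18, adjusted p = 5.79e-06). MCM6, a subunit of the replicative helicase, stayed at 68.8 to 83 and 85.5 to 90.4 FPKM in OCI-LY3 (adjusted p = 0.324) and fell from 54.9, 62.9 and 63.6 to 10.7, 18.2 and 12.8 in OCI-LY19 (difference 2.26 ± 0.21, adjusted p = 1.56e-05). The helicase subunits MCM2 to MCM7, which act as 1 ring, differed by 1.66 (MCM2), 1.66 (MCM3), 1.49 (MCM4), 1.22 (MCM5), 2.26 (MCM6) and 0.51 (MCM7). The ribonucleotide reductase genes RRM2 (1.70) and RRM1 (1.59), which supply nucleotides, and the transcription factor E2F1 (2.09), which drives this program, were higher too. RFC3 and PCNA, a clamp loader subunit and the clamp itself, were the 2 members whose difference did not pass (0.34 and 0.35).

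Mitosis genes differed as well, chiefly through falls in OCI-LY19. Of 28 that passed the filter (30 listed), 23 had a higher response in OCI-LY3 and 0 a lower one, with a median difference of 1.22 (1.04 to 1.36 over the settings). In OCI-LY19, 27 fell and 0 rose (median -1.20). In OCI-LY3, 6 rose, 5 fell and 17 did not pass (median -0.01). NUSAP1 and PRC1, which dividing cells commonly express, were below the filter in these 12 libraries, as were RAD50, NOP2, DIABLO and ASNS of other lists. The fall was uneven among treated OCI-LY19 libraries, with a list median of -1.63 in replicate 1 and of -0.95 and -1.02 in replicates 2 and 3.

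Among the kinetochore and spindle genes, CENPA, the centromeric histone, was at 11.2, 6.90 and 12 FPKM and then 9.06, 12.4 and 9.52 in OCI-LY3, and at 10.2, 18.6 and 13.8 and then 1.94, 3.56 and 3.96 in OCI-LY19. The OCI-LY3 groups overlapped and the OCI-LY19 groups did not, and the difference was 1.93 ± 0.37 (adjusted p = 0.00146). KIF11, the motor that separates spindle poles, differed by 1.81 ± 0.24 (adjusted p = 0.000165), and ANLN, the anillin of the cleavage furrow, by 1.78 ± 0.23 (adjusted p = 0.00012). ANLN rose in OCI-LY3 from 14.4 to 17.3 FPKM to 23 to 25.7 and fell in OCI-LY19 from 19.4 to 22.6 to 6.10 to 10.7.

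A few late mitotic genes fell in both lines. CDC20, the activator of the anaphase-promoting complex, fell by 1.51 ± 0.28 in OCI-LY3 and by 2.31 ± 0.28 in OCI-LY19, and the difference did not pass (0.80 ± 0.39, 95% interval -0.07 to 1.67, adjusted p = 0.125). It passed at 0.0222 without treated OCI-LY19 replicate 2 and at 0.0391 with all 24 libraries in the fit. PLK1, the mitotic polo kinase, fell by 0.94 ± 0.28 and 1.89 ± 0.28, with a difference of 0.95 ± 0.40 (adjusted p = 0.0738, and 0.0134 to 0.0496 under 6 other settings, among them the fits without untreated OCI-LY19 replicate 1, treated OCI-LY19 replicate 2 or untreated OCI-LY3 replicate 3). CCNB1, cyclin B1, fell by 0.66 ± 0.25 and 1.89 ± 0.25, and there the difference passed (1.23 ± 0.35, adjusted p = 0.0144).

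The cell cycle genes homology region (CHR, TTTGAA on either strand) is the element through which the DREAM complex and its relatives bind mitosis genes. Among the 250 bases before the start, 11 of the 22 mitosis genes with a RefSeq promoter held it (50%), against 836 of 9693 promoters of tested genes (8.62%) and 13.6% of all 27305 promoters. The promoters of the 3 mitosis genes with the largest differences all held it and are shown for that reason, with the match in capitals. CENPA lies at chr2:26785806-26786055, KIF11 at chr10:92592880-92593129 and ANLN at chr7:36389612-36389861, all on the plus strand of GRCh38.p14 (RefSeq). The match ends 13, 23 and 15 bases before the start, and ANLN holds it on both strands in tandem.
CENPA: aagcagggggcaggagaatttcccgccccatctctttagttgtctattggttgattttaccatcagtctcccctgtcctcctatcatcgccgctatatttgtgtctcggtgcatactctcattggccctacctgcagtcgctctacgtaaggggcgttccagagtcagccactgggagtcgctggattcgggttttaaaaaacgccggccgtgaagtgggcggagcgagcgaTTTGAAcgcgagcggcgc
KIF11: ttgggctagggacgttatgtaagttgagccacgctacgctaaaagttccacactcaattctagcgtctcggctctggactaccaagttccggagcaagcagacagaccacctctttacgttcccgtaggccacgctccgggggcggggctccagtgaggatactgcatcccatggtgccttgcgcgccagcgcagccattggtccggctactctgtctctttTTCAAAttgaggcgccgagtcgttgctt
ANLN: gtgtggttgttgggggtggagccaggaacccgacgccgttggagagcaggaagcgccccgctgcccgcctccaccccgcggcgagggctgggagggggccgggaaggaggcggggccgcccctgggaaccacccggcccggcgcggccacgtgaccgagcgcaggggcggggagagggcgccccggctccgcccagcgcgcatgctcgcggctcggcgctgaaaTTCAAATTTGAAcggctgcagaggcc

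Genes of break repair and the checkpoint were mostly higher too. Of 35 that passed (36 listed), 19 were higher in OCI-LY3 and 2 lower, with a median difference of 0.74 (0.52 to 0.75 over the settings). BRCA1, of homologous recombination, was at 14.6, 14.4 and 13.6 FPKM and then 31.3, 32.9 and 28.2 in OCI-LY3, and at 15.3, 14.8 and 14.5 and then 6, 8.77 and 8.64 in OCI-LY19. Untreated levels differed little and treated ones lay on opposite sides of them, a difference of 1.93 ± 0.16 (adjusted p = 8.72e-06). FANCD2 of the Fanconi pathway (1.67 ± 0.19) and the CHK1 mediator CLSPN (1.80 ± 0.23) also rose in OCI-LY3 and fell in OCI-LY19. The checkpoint kinase gene CHEK1 differed by 1.57 and fell in OCI-LY19. TOP2A, the isoform of topoisomerase II that doxorubicin traps in dividing cells, stayed at 66.8 to 100.4 and 97.6 to 107 FPKM in OCI-LY3 (adjusted p = 0.367) and fell from 92.2, 116 and 122 to 36.1, 62 and 64.9 in OCI-LY19, a difference of 1.29 ± 0.30 (adjusted p = 0.00516). Among end-joining genes, LIG4 was lower in OCI-LY3 (-0.90), XRCC6 higher (0.52), and XRCC4 (0.19) and XRCC5 (0.22) did not pass. The second member with a lower difference was RAD51C (-0.35), also of homologous recombination.

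**Figure D4:**
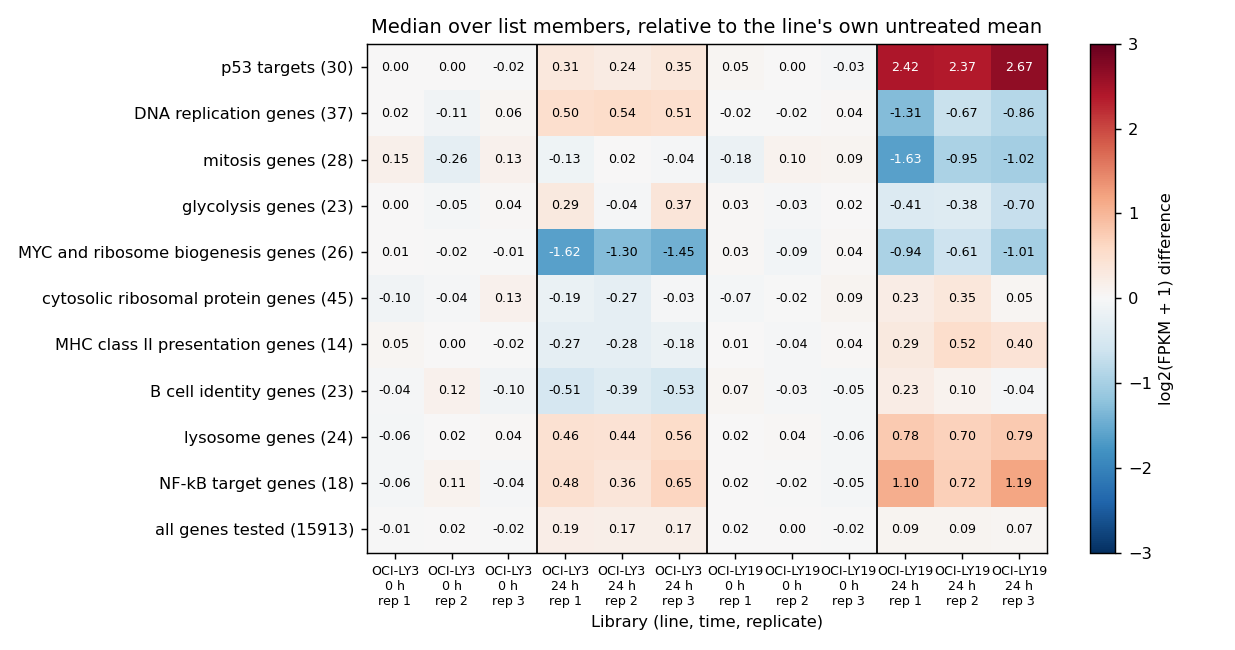
Each cell is the median over the members of a list (number in brackets) of log2(FPKM + 1) in 1 library minus the mean of the untreated libraries of its line; columns are the 12 libraries and colour follows the printed value. The p53 targets are 2.37 to 2.67 in treated OCI-LY19 against 0.24 to 0.35 in treated OCI-LY3, replication genes have opposite signs in the 2 lines, and MYC and ribosome biogenesis genes are lower in both.

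MYC and the genes of ribosome assembly fell in both lines and further in OCI-LY3. Of 26 that passed (27 listed), 26 fell in OCI-LY3 and 25 in OCI-LY19, with medians of -1.42 and -0.89. The difference was lower in 11 and higher in 0 (median -0.44), and the count ran from 7 without the 4 libraries ending in 2nd to 17 without treated OCI-LY3 replicate 2. MYC, the transcription factor that drives growth (chromosome 8, 127735434 to 127741434, plus strand), was at 115, 126 and 131 FPKM and then 17.3, 18 and 18.9 in OCI-LY3, and at 169, 161 and 190 and then 93.7, 147 and 87.7 in OCI-LY19. Treated OCI-LY3 libraries fell in a narrow band, while treated OCI-LY19 replicate 2 stayed near the untreated level. The falls were -2.71 ± 0.16 and -0.69 ± 0.16, and the difference was -2.02 ± 0.22 (adjusted p = 4.62e-05). The nucleolar genes RRP12 (-1.35 ± 0.20) and MYBBP1A (-1.33 ± 0.25) were next, while the core nucleolar genes FBL and BOP1 (both -0.04) and NOP58 (-0.09) fell alike. An E-box (CACGTG), the motif that MYC binds, was in 2 of the 20 promoters of this list, against 6.49% of all promoters and 9.11% of those of tested genes.

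The ribosome's own proteins took a separate course. All 45 cytosolic ribosomal protein genes passed the filter. In OCI-LY3, 10 fell and 0 rose, and in OCI-LY19, 19 rose and 0 fell, so that 22 had a lower difference and 0 a higher one (median -0.37). The lower count was 28 under median-of-ratios, 15 under quantile normalization and 11 without the 4 libraries ending in 2nd. RPS19, of the small subunit, was at 237 to 299.5 and 241 to 306 FPKM in OCI-LY3 and went from 266, 267 and 288 to 584, 548 and 481 in OCI-LY19 (difference -0.95 ± 0.17, adjusted p = 0.000862). RPL3, of the large subunit, differed by -0.82 ± 0.12 (adjusted p = 0.000267).

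In central metabolism, glycolysis genes were higher in OCI-LY3. Of 23 that passed (26 listed), 14 were higher and 1 lower, with a median difference of 0.67 (0.52 to 0.78 over the settings). In OCI-LY19, 17 fell and 3 rose, and in OCI-LY3, 9 rose and 2 fell. LDHA, the lactate dehydrogenase subunit (chromosome 11, 18394388 to 18408425, plus strand), was at 248, 222 and 243 FPKM and then 233, 199.9 and 240.0 in OCI-LY3, and at 199.5, 195 and 204 and then 47.4, 60.3 and 43 in OCI-LY19. Only the treated OCI-LY19 libraries stood apart, and the difference was 1.90 ± 0.16 (adjusted p = 9.46e-06). TPI1, triose phosphate isomerase, rose in OCI-LY3 and fell in OCI-LY19 (1.65 ± 0.18). PFKFB3, which makes the activator of phosphofructokinase, did the same on a smaller scale (0.96 ± 0.12, adjusted p = 7.69e-05). The glucose transporter SLC2A3 (-0.44) was the member with a lower difference. HK2, hexokinase 2, was at the threshold (0.38 ± 0.14, adjusted p = 0.0491) and did not pass under 18 of 24 other settings (0.056 to 0.214 there).

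IDH2, the mitochondrial isocitrate dehydrogenase that uses NADP (chromosome 15, 90083045 to 90102504, minus strand), had the largest difference in the tricarboxylic acid cycle list. It was at 10.7, 8.55 and 13.4 FPKM and then 95, 71.3 and 91.3 in OCI-LY3, and at 59.9, 82.9 and 79 and then 55.7, 69.1 and 61.8 in OCI-LY19. Treated OCI-LY3 reached the level that OCI-LY19 had before treatment, and the OCI-LY19 groups overlapped (difference 3.12 ± 0.24, adjusted p = 5.42e-06). Of the 18 members 9 were higher and 1 lower (median 0.36, with 6 to 13 higher over the settings). FH, fumarase (1.42 ± 0.16), and SUCLG2, a succinyl-CoA ligase subunit (1.36 ± 0.16), rose in OCI-LY3 and fell in OCI-LY19. The 13 mitochondrially encoded mRNAs gave 0 calls in limma (1 at an unadjusted p below 0.05).

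Of 12 non-canonical NF-kB components that passed (16 listed), 7 rose and 1 fell in each line. Over all genes tested, 38.6% rose in OCI-LY3 and 33.5% in OCI-LY19. Of the 12, 2 had a higher and 3 a lower difference, 41.7% called against 44.3% of all genes tested (27.0% higher and 17.3% lower). The median difference of these components was 0.05 (-0.09 with median-of-ratios scaling). NFKB2, which encodes the p100 precursor of p52 (chromosome 10, 102394110 to 102402529, plus strand), was at 4.73, 6.59 and 5.21 FPKM and then 21, 22 and 21.1 in OCI-LY3, and at 3.28, 3.73 and 2.35 and then 9.12, 9.56 and 12 in OCI-LY19. Both lines rose without overlap, by 1.79 and 1.45, and the difference was 0.34 ± 0.20 (95% interval -0.11 to 0.78, adjusted p = 0.202, or 0.0171 with a pseudocount of 5). RELB, the partner of p52, rose by 1.62 and 1.49, with a difference of 0.13 ± 0.18 (95% interval -0.26 to 0.52; it passed at 0.0329 under 1 other setting). MAP3K14, the NF-kB inducing kinase, rose by 0.52 and 0.34 (0.18 ± 0.13). TRAF3, the brake on that kinase, differed by 0.03 ± 0.14 (95% interval -0.27 to 0.33).

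TRAF2, an adaptor of TNF receptors, was higher in OCI-LY3 (0.80 ± 0.15, adjusted p = 0.00112). Among 23 canonical components, 4 were higher (17.4%, against 27.0% of all genes tested) and 5 lower (21.7%, against 17.3%). Their median was 0.06, and -0.07 with median-of-ratios scaling. TNFAIP3, the A20 enzyme that turns the pathway off, went from 0.342, 0.679 and 0.444 FPKM to 1.64, 1.57 and 1.36 in OCI-LY3 and from 9.46, 10.4 and 7.36 to 34.9, 42.8 and 39.4 in OCI-LY19. Both rose clearly, by 0.77 and 2, and the difference of -1.23 ± 0.18 (adjusted p = 0.000258) shrank to -0.61 (adjusted p = 0.106) with a pseudocount of 0.1. IKBKB, the catalytic kinase of the canonical arm, was lower in OCI-LY3 (-0.82 ± 0.14, adjusted p = 0.000774). The inhibitor NFKBIA rose in both lines, with a difference of 0.52 ± 0.18 (adjusted p = 0.0325) that did not pass under 12 other settings. BIRC3 (-0.78 ± 0.28, adjusted p = 0.0423) likewise did not pass under 13.

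NF-kB target genes rose in OCI-LY19 in 13 of 18 that passed the filter (28 listed) and in OCI-LY3 in 9. The difference was lower in 7 (38.9%, against 17.3% of all genes tested) and higher in 3 (16.7%, against 27.0%). Its median was -0.49 (-0.72 to -0.31 over the settings). The lowest was that of CCR7, the lymph node homing receptor (-2.48 ± 0.22, adjusted p = 1.21e-05). CCR7 rose in both lines, from 0.137, 0.0906 and 0.078 FPKM to 0.871, 0.415 and 1.19 in OCI-LY3. In OCI-LY19 it went from 14.9, 18.4 and 18.9 to 170.2, 141 and 189.6. A pseudocount of 1 understates a rise from below 1 FPKM, so the size of the CCR7 difference depends on it. CD80, a costimulatory ligand, was at most 0.181 FPKM in OCI-LY3 and reached 4.72 to 7.03 in OCI-LY19. CD80 and IER3 passed the filter through treated OCI-LY19 alone, which sets the sign of their differences. The transcription factor IRF1 (1.55) was the target with the largest positive difference. CCL3, CCL4, TNF, IL6 and IL10 were below 1 FPKM in every library. A kappaB-like match (GGG, 5 bases of any kind and CC, either strand) was present in 53.7% of all promoters, 68.6% of those of tested genes and 8 of 16 target promoters.

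Interferon-stimulated genes were higher in OCI-LY3 in 8 (36.4%, against 27.0% of all genes tested, but 2 without the 4 libraries ending in 2nd and 5 without treated OCI-LY3 replicate 3 or with the library name prefix as covariate) and lower in 3 of 22 that passed (29 listed, 2 of the 22 through a single group), with a median difference of 0.16 that reached -0.01 without treated OCI-LY3 replicate 3. IFI35 was at 0.234, 0.464 and 0.499 FPKM and then 3.37, 3.17 and 4.72 in OCI-LY3, and at 5.27, 4.92 and 5.91 and then 6.58, 5.51 and 5.43 in OCI-LY19. Treated OCI-LY3 came close to the level OCI-LY19 held throughout (difference 1.65 ± 0.19, adjusted p = 4.92e-05). IFI6, an interferon-induced mitochondrial protein, rose in OCI-LY3 from at most 0.272 FPKM to 4.02, 1.83 and 7.06, with a difference of 1.47 ± 0.49 (adjusted p = 0.031, or 0.0533 to 0.144 under the 11 settings where it did not pass). The antiviral TRIM22 went the other way: it stayed at 7.45 to 11.3 FPKM in OCI-LY3 and went from 12.2 to 15.1 to 81.7 to 92.8 in OCI-LY19 (-2.35 ± 0.16, adjusted p = 2.62e-06). STAT2, a subunit of the interferon-activated factor, rose in both, by 2.03 and 1.38 (difference 0.65 ± 0.17, adjusted p = 0.00983, or 0.0509 to 0.17 under the 3 settings where it did not pass).

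The interferon response motif (GAAA, 2 bases of any kind and GAAA, on either strand) was in 10 of the 16 promoters of this list, against 3.07% of all promoters. That of IFI6 is shown because it holds the motif at 3 places and its rise passed in OCI-LY3 alone. It lies at chr1:27672193-27672442 on the minus strand (GRCh38.p14, RefSeq), with the matches in capitals.
IFI6: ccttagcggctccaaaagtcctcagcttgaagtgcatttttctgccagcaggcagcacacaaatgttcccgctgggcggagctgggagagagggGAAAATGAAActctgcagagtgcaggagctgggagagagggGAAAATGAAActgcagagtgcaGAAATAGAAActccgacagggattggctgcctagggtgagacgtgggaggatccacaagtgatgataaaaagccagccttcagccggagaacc

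For MHC class I presentation, 4 of 17 genes were higher (23.5%, against 27.0% of all genes tested) and 2 lower (11.8%, against 17.3%), the lower count running from 0 to 7 over the settings (7 with quantile normalization; median difference -0.04, from -0.28 to 0.18 over the settings). The 4 higher ones process peptides: the immunoproteasome subunits PSMB9 (1.68 ± 0.20), PSMB10 (1.07 ± 0.15) and PSMB8 (0.78) and the loading chaperone TAPBP (0.79 ± 0.23). PSMB9 was at 3, 3 and 4.12 FPKM and then 11, 10 and 13.4 in OCI-LY3, and at 12, 12.8 and 14.9 and then 10.7, 13.8 and 10.6 in OCI-LY19. HLA genes vary between people and share sequence, so reads of some alleles can be lost or exchanged between genes.

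MHC class II genes fell or held in OCI-LY3 and rose in OCI-LY19. Of 14 members, 12 had a lower difference and 0 a higher one (median -0.55, from -0.88 to -0.49), with 7 falls and 1 rise in OCI-LY3 and 11 rises and 0 falls in OCI-LY19. HLA-DQA1 was at 54.8, 58 and 44.6 FPKM and then 35, 41 and 42.5 in OCI-LY3, and at 5.98, 5.05 and 7.58 and then 12.9, 15.3 and 16.7 in OCI-LY19 (-1.55 ± 0.20, adjusted p = 0.000136). HLA-DRA (-1.10 ± 0.11) and the invariant chain CD74 (-1.03 ± 0.13) moved likewise, each without overlap in either line. CIITA, the master regulator of class II genes, was at 5.42 to 7.43 and 5.66 to 6.15 FPKM in OCI-LY3 and went from 4.98 to 5.12 to 6.54 to 7.64 in OCI-LY19. Its difference of -0.48 ± 0.14 (adjusted p = 0.0138) did not pass without the 4 libraries ending in 2nd (-0.42, adjusted p = 0.14).

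B cell identity genes were lower in OCI-LY3 in 13 and higher in 4 of 23 that passed (24 listed), with a median difference of -0.64 (-0.83 to -0.53). In OCI-LY3, 14 fell and 2 rose, and in OCI-LY19, 10 rose and 8 fell. CD22, an inhibitory coreceptor of the B cell receptor (chromosome 19, 35319261 to 35347355, plus strand), was at 176, 200.2 and 139 FPKM and then 56.2, 71.4 and 52.1 in OCI-LY3, and at 34.2, 37.7 and 26.7 and then 78.8, 65.9 and 94.2 in OCI-LY19. Untreated OCI-LY3 was far higher, and after treatment all OCI-LY19 libraries but replicate 2 exceeded every OCI-LY3 library. The difference was -2.75 ± 0.26 (adjusted p = 1.48e-05). POU2F2, the octamer factor OCT2, fell from 39.1 to 43.8 FPKM to 25.3 to 29.4 in OCI-LY3 and rose from 0.309 to 0.547 to 4.36 to 6.80 in OCI-LY19 (-2.80 ± 0.18, adjusted p = 1.62e-06). CD79A, a signal chain of the receptor, had the largest positive difference (1.38): it fell in both lines, by 0.61 in OCI-LY3 and by 2 in OCI-LY19.

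Germinal center genes were lower in 5 of 15 (33.3%, against 17.3% of all genes tested), among them RGS13, described further on. Higher were 2 (13.3%, against 27.0%). BCL6 (chromosome 3, 187721377 to 187745727, minus strand) fell from 79.4, 83.7 and 71.4 FPKM to 23, 23 and 22.8 in OCI-LY3 and stayed at 1.08 to 2.28 in OCI-LY19 (-1.87 ± 0.20, adjusted p = 4.04e-05). S1PR2, which confines cells to the germinal center, fell from 68.2 to 81.6 FPKM to 39.5 to 45.2 in OCI-LY3 (-1.45 ± 0.13). The 2 higher ones were MME and LMO2, both through a fall in OCI-LY19 (median -0.17, and 0.07 with a filter at FPKM 5). Of 16 activated B cell and plasmablast genes that passed (18 listed), 6 were higher (37.5%, against 27.0% of all genes tested). Lower were 3 (18.8%, against 17.3%), and the median was -0.09 (0.05 with a pseudocount of 0.1). SDC1, which encodes the plasma cell surface marker CD138, was at most 0.464 FPKM in OCI-LY3 and went from 0.432, 1.20 and 0.499 to 16.6, 16.6 and 20 in OCI-LY19 (-3.07 ± 0.21, adjusted p = 2.57e-06). SDC1 met the filter only through treated OCI-LY19, so the filter built a difference in and it is no support. XBP1, the secretory cell regulator, fell in OCI-LY19 from 64.2 to 80.7 FPKM to 20.5 to 32.6 and had a difference of 1.03 ± 0.23 (adjusted p = 0.00424, or 0.0565 with quantile normalization). PRDM1 and IRF4 did not pass (-0.13 ± 0.14 and -0.49 ± 0.19, adjusted p = 0.486 and 0.0541), though IRF4 passed under 5 other settings (0.00599 to 0.049).

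Summed marker levels of other lineages are given as values, without a test. In OCI-LY19 the summed FPKM of 14 T and NK cell markers was 24.8 to 28.5 untreated and 62.3 to 87.5 treated, most of it TRAC. CD3D, CD3E, CD3G and CD4 were at 0 in both groups of OCI-LY19. In OCI-LY3 the sum was 5.92 to 6.68 and then 6.71 to 10.5. The sum of 11 myeloid markers was 6.10 to 9.88 and then 20.1 to 33.3 in OCI-LY19, with S100A9 at 0, and 0.466 to 0.906 and then 0.690 to 1.36 in OCI-LY3. Its largest parts in untreated OCI-LY19 were LYZ (mean 4.32 FPKM) and CSF1R (2.86). In treated OCI-LY19 they were LYZ (12.1), ITGAM (10.4) and CSF1R (4.42). The sum of 13 stromal, epithelial and endothelial markers overlapped between times, at 1.37 to 4.76 and then 3.63 to 5.75 in OCI-LY19 and 3.80 to 7.29 and then 1.94 to 3.90 in OCI-LY3. Their part in the differences was not tested, and in bulk RNA a change in the share of cells and one in RNA per cell cannot be told apart.

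In the unfolded protein and integrated stress response list, 4 of 19 were higher (21.1%, against 27.0% of all genes tested) and 5 lower (26.3%, against 17.3%), and 1 member passed the filter through a single group (median -0.06, from -0.20 to 0.14). DDIT3, the CHOP transcription factor, was at 12.3 to 13.1 and 7 to 11.2 FPKM in OCI-LY3 and went from 11 to 12.8 to 32.1 to 51.1 in OCI-LY19 (-2.03 ± 0.25, adjusted p = 9.89e-05). PPP1R15A (-1.94), which feeds back on that arm, ATF3 (-1.87) and SESN2 were lower too. PHGDH, the first enzyme of serine synthesis, was at most 0.103 FPKM in OCI-LY3 and fell from 34.6 to 44.3 to 6.14 to 11.3 in OCI-LY19 (2.09 ± 0.23, adjusted p = 4.68e-05). HSPA5, the endoplasmic reticulum chaperone BiP, fell by 1.59 and 1.28, with a difference of -0.30 that did not pass.

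Of 14 hypoxia genes outside glycolysis that passed, 4 were higher (28.6%, against 27.0% of all genes tested). Lower were 5 (35.7%, against 17.3%), and the median was 0.16 (-0.23 with a filter at FPKM 5). BHLHE40, a transcriptional repressor, was at most 0.166 FPKM in OCI-LY3 and went from 2.02 to 2.78 to 28.6 to 43.7 in OCI-LY19 (-3.47 ± 0.20, adjusted p = 9.74e-07). BNIP3, a mitophagy receptor, was the highest (1.53). Its relative BNIP3L rose in both lines, by 1.87 and 1.28, with a difference of 0.59 ± 0.22 (adjusted p = 0.0462) that did not pass under 20 other settings.

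Lysosome genes rose in both lines, 17 of 24 in OCI-LY3 and 22 in OCI-LY19. The difference was lower in 9 (37.5%, against 17.3% of all genes tested) and higher in 4 (16.7%, against 27.0%). Its median was -0.34, from -0.46 to -0.22. GRN, progranulin, went from 44, 54 and 55.5 FPKM to 105, 90.9 and 111 in OCI-LY3 and from 18, 17.6 and 17.9 to 131, 103 and 119 in OCI-LY19. Treated levels met while untreated ones did not (-1.66 ± 0.16, adjusted p = 1.72e-05). TFEB, the regulator of lysosome genes, fell in OCI-LY3 and rose in OCI-LY19 (-1.30 ± 0.16), and its relative TFE3 rose in both (0.07, not passed).

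Doxorubicin transport and metabolism genes gave 2 higher and 3 lower of 13 that passed (20 listed), 38.5% called against 44.3% of all genes tested. ABCB1, the P-glycoprotein pump that exports doxorubicin, was at most 0.00648 FPKM in all 12 libraries. The exporter gene ABCC1 was at 12 to 14.2 and 15.4 to 16.2 FPKM in OCI-LY3 and 9.69 to 12.1 and 13.7 to 15.6 in OCI-LY19, and its difference did not pass (-0.22). MVP, the major vault protein (-2.10 ± 0.27), and ABCC5 (-1.08 ± 0.19) were lower, and AKR1B1, an aldo-keto reductase, was higher (1.35 ± 0.15). NRF2 targets were higher in 4 (36.4%, against 27.0% of all genes tested) and lower in 0 of 11 that passed (14 listed, median 0.33). TALDO1 of the pentose phosphate pathway came first (1.58 ± 0.22). Sterol synthesis genes were called in 35.0% (44.3% of all genes tested), higher in 5 (8 without treated OCI-LY3 replicate 2) and lower in 2 of 20 (median 0.23), with EBP (1.20 ± 0.22) and FDPS (1.19 ± 0.15) first.

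The genes with the largest differences of all, among those at a mean of 10 FPKM or more in some group and with every OCI-LY3 change separate from every OCI-LY19 change (a separation seen in 40.6% of genes tested), were mostly moved by OCI-LY19. On the lower side, CSPG4, a cell surface proteoglycan (chromosome 15, 75674322 to 75712848, minus strand), was at most 0.0369 FPKM in OCI-LY3 and went from 1.87, 1.11 and 1 to 63.4, 66.6 and 65.3 in OCI-LY19 (-4.84 ± 0.16, adjusted p = 7.22e-08). SIGLEC14, FCER1A, DRAXIN, HSPG2 and CALML6 shared this shape, with every OCI-LY3 library below 1 FPKM, and differed by -4.20 to -3.74. These 5 were below 1 FPKM in untreated OCI-LY19 too and passed the filter through its treated libraries alone. SIGLEC14 is nearly identical to SIGLEC5 over part of its length, so its reads are uncertain. METTL7A, like BTG2, MDM2 and RGS16, was expressed in both lines: 23.5 to 28 and then 35.7 to 41.6 FPKM in OCI-LY3, and 2.50 to 3.28 and then 57.1 to 85.7 in OCI-LY19 (-3.68 ± 0.20).

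On the higher side, RASD1, a small GTPase induced by glucocorticoids, was at most 0.0433 FPKM in OCI-LY3 and fell from 27.1, 49.8 and 36.7 to 1.47, 3.54 and 1.14 in OCI-LY19 (3.69 ± 0.36, adjusted p = 2.05e-05). IGLL1, a surrogate light chain gene with near copies at the lambda locus, fell from 377 to 636 FPKM to 26.8 to 105 in OCI-LY19 and was at most 0.278 in OCI-LY3. Others moved more in OCI-LY3, among them IDH2 and TK1 above and CDKN1B. CDKN1B, the gene of p27, another inhibitor of cyclin-dependent kinases, went from 0.536, 0.812 and 1.31 FPKM to 8.49, 6.71 and 9.03 in OCI-LY3 and stayed at 30.1 to 30.9 and 27.4 to 28.3 in OCI-LY19 (2.40 ± 0.19, adjusted p = 5.93e-06). Treated OCI-LY3 remained below every OCI-LY19 library.

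Opposite responses were strongest for 10 genes, 5 in each direction. ALDOC, the brain-type aldolase (chromosome 17, 28573115 to 28577264, minus strand), rose in OCI-LY3 from 2.88, 6.14 and 4.43 FPKM to 41.5, 13.3 and 43.7 and fell in OCI-LY19 from 3.64, 6.65 and 5.14 to 2.03, 1.89 and 1.74. Treated OCI-LY3 replicate 2 rose less than the other 2 but stayed above every untreated library (3.56 ± 0.54, adjusted p = 0.000358). SPC24, a subunit of the NDC80 kinetochore complex, went from 21.8, 18.4 and 27.7 FPKM to 67.4, 57.2 and 69.5 in OCI-LY3 and from 11.3, 14.2 and 15.2 to 4.82, 7.88 and 6.42 in OCI-LY19 (2.48 ± 0.25). CD84, a SLAM family receptor, rose from 1.55 to 1.98 FPKM to 3.07 to 3.67 in OCI-LY3 and fell from 12.4 to 14.2 to 1.83 to 2.86 in OCI-LY19 (2.81 ± 0.16). GPER1 and SUSD3, both linked to estrogen signalling, differed by 2.86 ± 0.34 and 2.60 ± 0.24. The OCI-LY3 groups of GPER1 overlapped (6.60 to 12.5 and 11.3 to 17.5 FPKM), and most of its difference came from OCI-LY19.

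In the other direction, RGS16 and RGS13, regulators that shorten signalling from G protein coupled receptors, fell in OCI-LY3 and rose in OCI-LY19. RGS16 (chromosome 1, 182598623 to 182604408, minus strand) was at 31.3, 28.6 and 25.7 FPKM and then 15, 18.9 and 18 in OCI-LY3, and at 25.7, 22.2 and 22.7 and then 285, 296 and 353 in OCI-LY19. Untreated levels were close, treated levels lay far apart, and the difference was -4.36 ± 0.16 (adjusted p = 7.22e-08). RGS13, known from germinal center B cells, went from 48.6, 53 and 37.9 FPKM to 16.3, 18.6 and 15.4 in OCI-LY3 and from 0.924, 0.527 and 0.388 to 6.11, 4.02 and 6.26 in OCI-LY19 (-3.41 ± 0.24). IRAG2, an endoplasmic reticulum membrane protein of lymphocytes, differed by -3.24 ± 0.16, falling by 1.62 and rising by 1.63, so that treated levels of 45.7 to 60.6 and 35 to 43.1 FPKM came close from untreated ones of at least 148 and at most 12.2. SPNS2, a sphingosine-1-phosphate exporter, differed by -3.11 ± 0.21.

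**Figure D5:**
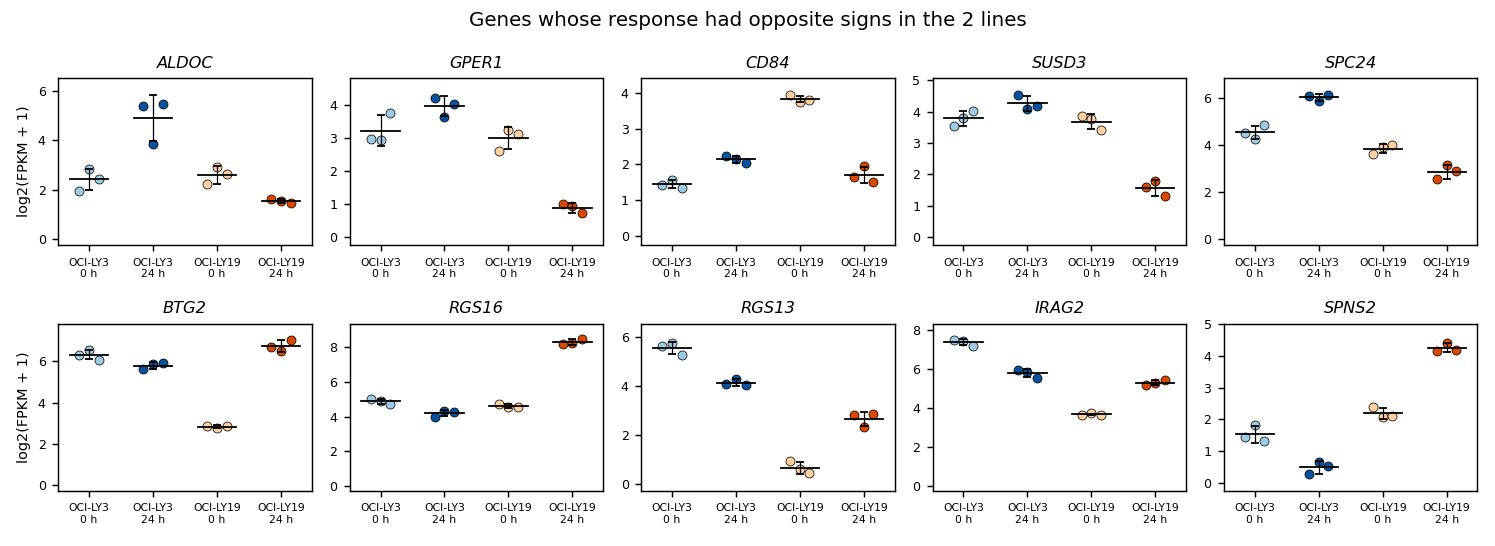
log2(FPKM + 1) in each library (points) with the mean (bar) and SD (error bar) of each group of 3, for the 5 genes that rose in OCI-LY3 and fell in OCI-LY19 (top row) and the 5 that did the opposite (bottom row) with the largest differences; y axes include 0 and differ in range. RGS16 is close between the untreated lines and far apart between the treated ones, and the GPER1 groups of OCI-LY3 overlap. BTG2 is higher in OCI-LY3 before treatment and higher in OCI-LY19 after it.

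Shared responses mark the other end. Among genes called in both lines in 1 direction with an adjusted p of at least 0.5 for the difference, the largest shared rise was that of PFKFB4, a regulator of glycolytic flux. It went from 0.544, 0.627 and 0.769 FPKM to 14.4, 5.34 and 12.4 in OCI-LY3 and from 2.31, 2.18 and 1.38 to 19.2, 11.8 and 23 in OCI-LY19, by 2.73 and 2.65. CHST2 (2.31 and 2.42), the tubulin gene TUBA1A (2 and 2.18), the adhesion gene NECTIN1 (1.99 and 1.89) and SAT1 of polyamine breakdown (1.68 and 1.76) followed. The difference for SAT1 was -0.08 ± 0.18, with a 95% interval of -0.47 to 0.31, and for PFKFB4 0.08 ± 0.44 with one of -0.88 to 1.05, a far wider interval. Shared falls were led by CKS2, a cyclin-dependent kinase subunit (-1.64 and -1.51), the chaperone genes HSPH1 (-1.47 and -1.50) and AHSA1 (-1.36 and -1.45), the spermidine synthase gene SRM (-1.52 and -1.26) and RABEPK (-1.25 and -1.23). The polyamine genes SRM and SAT1 moved in opposite directions to each other and alike in both lines.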

How the data were processed

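RNA from 12 cultures of 2 human lymphoma lines was sequenced as strand-specific libraries of polyadenylated RNA, per the labels' protocols. The submitters' processing notes list Trimmomatic, STAR, featureCounts and hg38. For versions, annotation, strand setting and overlapping genes, nothing is given in the sources used here. FPKM per gene, scaled for length and library size, is what the authors deposited. From these, whole reads were recovered with GENCODE 29 exon lengths within 0.01 read, for genes with the same ID version there. In those genes, replicates differed by more than counting noise. Counts are therefore used for depth only, and p-values measure the spread between 3 libraries a group.

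Values were log2(FPKM + 1), so changes of low genes are understated. Linear models over the 4 groups of 12 libraries, with trended variance moderation and two-sided tests (limma 3.58.1, R 4.3.3), gave the difference in response and each response, with Benjamini-Hochberg adjustment at 0.05. The code was tested on simulated data with 15913 genes, where it recovered 67% of differences of log2 size 1 and 93% of size 2, with 3% false calls. That simulation changed only a small part of the genes and drew independent noise without shifts between libraries. The 3% is therefore a check of the code and no error rate for the calls reported here. The main model did not pair samples by the replicate numbers of the labels, and a replicate block was tried as an alternative. Symbols were matched for 60445 of 60656 IDs.

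The genes named follow a rule: the 10 largest differences each way at a mean FPKM of 10 or more with all changes separate, the 5 largest opposite ones each way, the 3 largest called in each of 26 gene lists, the 5 largest shared ones each way, and a fixed set, of which some are not reported here. Further list members are named where a sentence accounts for a list, and were chosen after their values were seen. The lists, markers and members were chosen with earlier results of these data known, so list counts and medians are descriptions. Alternatives were 2 pseudocounts (0.1, 5), 2 filters, TPM, median-of-ratios and quantile scaling, all 24 libraries, a replicate block, the prefix of the library name as a covariate and leaving out each library. Added after seeing the column names were the ending 2nd as a covariate and leaving out the 4 libraries that carry it, 1 per group. In the sample descriptions, the names of those 4 libraries share another ending. The remaining libraries carry different endings in the 2 lines, except that untreated OCI-LY19 replicate 3 carries that of OCI-LY3. What these endings mark is not stated in the sources used here, and no setting adjusted for their split between lines. Promoters are from RefSeq.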

Additional observations from a re-analysis of the deposited data

Results flagged for a closer look

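Opposite responses in the 2 lines, both called by limma, were counted. There were 865 genes that rose in OCI-LY3 and fell in OCI-LY19, and 254 that fell in OCI-LY3 and rose in OCI-LY19. The difference passed for all of them, which follows from the opposite calls and is no further support. The counts rest on the calls within each line, which moved with scaling: rises in OCI-LY3 went from 6142 to 3801 with median-of-ratios. In the first direction the differences of the 5 leading genes were 3.56 for ALDOC, 2.86 for GPER1, 2.81 for CD84, 2.60 for SUSD3 and 2.48 for SPC24. In the second they were -4.42 for BTG2, -4.36 for RGS16, -3.41 for RGS13, -3.24 for IRAG2 and -3.11 for SPNS2.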

How the results depend on the processing

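Among the 123 named genes, 100 kept direction and call for the difference under all 24 alternatives and 23 did not. Leaving out each library in turn gave 3682 to 4284 genes higher and 2020 to 2834 lower. Without the 4 libraries ending in 2nd, 2821 were higher and 1582 lower, with fewer samples. A filter at FPKM 5, with fewer genes tested, gave 1787 lower differences, 3757 rises in OCI-LY3 and 2997 in OCI-LY19. Median-of-ratios scaling gave 3801 rises and 4091 falls in OCI-LY3, and quantile normalization 3627 and 3470. The replicate block gave 4516 higher and 2907 lower, against 4298 and 2754 in the main fit. Same-numbered libraries had deviations correlated at -0.02, 0.09 and 0.39 in OCI-LY3 and 0.39, 0.28 and 0.04 in OCI-LY19. Libraries of other numbers ran from -0.26 to 0.21 in OCI-LY3 and from -0.37 to 0.09 in OCI-LY19. Some pairing by number, which the main model leaves out, is therefore possible.

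Differences that reversed were near 0. With median-of-ratios scaling they were -0.01 for RELB, -0.11 for TRAF3 and -0.12 for MCL1, and with quantile normalization -0.02 for TRAF3, 0.09 for PRDM1 and -0.09 for MCL1. A pseudocount of 0.1 gave -0.02 for RELB and 0.14 for PRDM1, and a pseudocount of 5 gave 0.11 for CD40. Without the 4 libraries, RELB was -0.03 and MCL1 -0.04, and with the name prefix as covariate MCL1 was -0.01. Leaving out 1 library gave -0.05 to 0.12 for TRAF3 and -0.05 to 0.08 for MCL1. The cause was not tested. Depth limits genes below 1 FPKM, where the pseudocount sets the size of the difference.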
